A study of Rattus norvegicus with 12 samples.

Results

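The aquaporins are a family of membrane channels for water and, in some members, glycerol, and 6 of their genes (*Aqp1*, *Aqp3*, *Aqp4*, *Aqp5*, *Aqp7*, and *Aqp9*) were followed here through the healing of skin wounds in diabetic rats. They were taken by symbol from the 25620 genes of the deposited count table and the 25524 genes of the deposited FPKM table, all 6 were present in both, and all 6 were among the 15672 genes kept for testing. The rats were male SD animals made diabetic with streptozotocin, a toxin of the pancreatic beta cell, and each received a punched full-thickness wound on the back. The wounds of the control group received saline, those of the d-SMG group the dried mucus gel of the snail *A. fulica*, those of the s-GAG group (labelled GAG) the sulfated glycosaminoglycan of that mucus, and those of the Alg group a commercial alginate dressing. Tissue was sequenced on day 3, 7, and 14 and each combination of treatment and day is represented by 1 library (12 in all), so that a single-day difference rests on 1 library a side and carries no test. How many rats stood behind a library is not given in the sources used here, and a chemically induced diabetes of this kind models only some traits of the human disease.

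The libraries held 13748887 to 38302461 reads on genes. Levels are given as CPM, counts scaled to a common library total after TMM scaling for differences in composition between libraries, with an exact 95% interval that covers the counting error only. Levels of different genes are compared only as FPKM, which also divides by gene length. Before any aquaporin is described, 3 features of the libraries have to be known. The d-SMG library of day 3 held 55.3 CPM of 13 keratinocyte markers together, among them the basal keratins *Krt5* and *Krt14*, against 4374 to 35304 CPM in the other 11 libraries, although the tissue is labelled skin. Skeletal muscle markers, 18 genes such as *Acta1* and *Ckm*, ran from 6399 CPM in the d-SMG library of day 7 to 272377 CPM in the d-SMG library of day 3, or 0.806% to 20.2% of the reads. Hair follicle markers, 15 genes such as *Krt71* and *Tchh*, summed to 31.8 to 2660 CPM in control, 25.1 to 4476 in d-SMG, 6373 to 10948 in s-GAG, and 477 to 44655 in Alg, so that every s-GAG library lay above every control library. In tissue libraries, fewer cells of a type and less RNA per cell cannot be told apart.

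Water follows osmotic gradients across cell membranes, and aquaporins, which assemble as tetramers with a pore in every subunit, let it pass far faster than the lipid layer does. AQP1, AQP4, and AQP5 are mainly water channels, whereas AQP3, AQP7, and AQP9 also carry glycerol and are called aquaglyceroporins. In the skin, AQP3 is the channel of the keratinocytes, where glycerol transport keeps the epidermis hydrated, and AQP1 is known from endothelium and red cells. AQP4 is best known from astrocytes and is also found at the membrane of fast skeletal muscle fibres, AQP5 belongs to sweat and other exocrine glands, AQP7 to adipocytes, and AQP9 to hepatocytes and leukocytes.

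The bases around the starts of *Aqp3* and *Aqp1* are shown because these 2 genes supplied most of the aquaporin transcripts while one was the steadiest of the family and the other nearly vanished from a library. Both sequences are from RefSeq on GRCr8 (minus strand for *Aqp3*, chr5:61040634-61040933, and plus strand for *Aqp1*, chr4:85812534-85812833), and run 5′ to 3′ from 250 bases before the annotated start to 50 bases after it. Capitals mark the motifs TATAAA (the TATA box), GGGCGG (the GC box), and CANNTG (the E-box), each searched on both strands, with no overlap between matches in these 2 windows.
Aqp3: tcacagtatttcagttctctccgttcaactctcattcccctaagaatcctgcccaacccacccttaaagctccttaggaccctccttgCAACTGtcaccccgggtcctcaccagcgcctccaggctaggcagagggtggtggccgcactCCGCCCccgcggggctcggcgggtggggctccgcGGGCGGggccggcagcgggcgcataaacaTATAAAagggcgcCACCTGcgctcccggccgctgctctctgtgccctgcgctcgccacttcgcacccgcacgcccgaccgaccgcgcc
Aqp1: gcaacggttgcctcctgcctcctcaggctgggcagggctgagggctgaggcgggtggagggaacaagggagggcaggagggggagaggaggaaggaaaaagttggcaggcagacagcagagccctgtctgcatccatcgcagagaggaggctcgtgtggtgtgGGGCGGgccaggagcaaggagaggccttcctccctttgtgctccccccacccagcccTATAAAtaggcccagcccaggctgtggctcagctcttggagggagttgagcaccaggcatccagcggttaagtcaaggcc
Both windows hold TATAAA close to the start, with its first base at position -38 in *Aqp3* and at -30 in *Aqp1*, a sequence present in 14.2% of the 33469 rat promoter windows of this length. GGGCGG stands 2 times in the *Aqp3* window and 1 time in that of *Aqp1*, and 33.1% of all windows hold it. CANNTG, the core of sites bound by helix-loop-helix factors, occurs 2 times in the *Aqp3* window, 0 times in the *Aqp1* window, and in 72.1% of all windows. The 2 annotated starts of *Aqp4* have 5 and 1 CANNTG matches and no TATAAA. These are matches of letters, not sites shown to be bound.

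Compared per length, *Aqp3* and *Aqp1* made up nearly all of the aquaporin signal. *Aqp3* had a median FPKM of 56.1 over the 12 libraries (0.03 to 130) and *Aqp1* of 23.2 (17.8 to 46.8). The other 4 medians were 0.47 for *Aqp5*, 0.45 for *Aqp7*, 0.315 for *Aqp4*, and 0.185 for *Aqp9*, and the ranges of these 4 genes overlapped one another. Together *Aqp3* and *Aqp1* held 79.2% to 99.2% of the summed FPKM of the 6 genes, with a median of 97.7%.
The mix differed between libraries mainly through *Aqp3*. Its share in the control group was 39.0%, 44.9%, and 66.4% on day 3, 7, and 14, respectively. In the s-GAG group it was 71.3%, 76.1%, and 70.8%, and in the Alg group 57.0%, 64.1%, and 79.3%. The d-SMG group held both extremes, with 0.101% on day 3, 59.1% on day 7, and 85.7% on day 14. On day 3 of d-SMG the mix was instead 79.1% *Aqp1* and 19.9% *Aqp4*. The aquaglyceroporins *Aqp3*, *Aqp7*, and *Aqp9* together accounted for 1.01% to 86.2% of the signal, with a median of 66.0% (54.8% when CPM was used in place of FPKM).

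**Figure D1:**
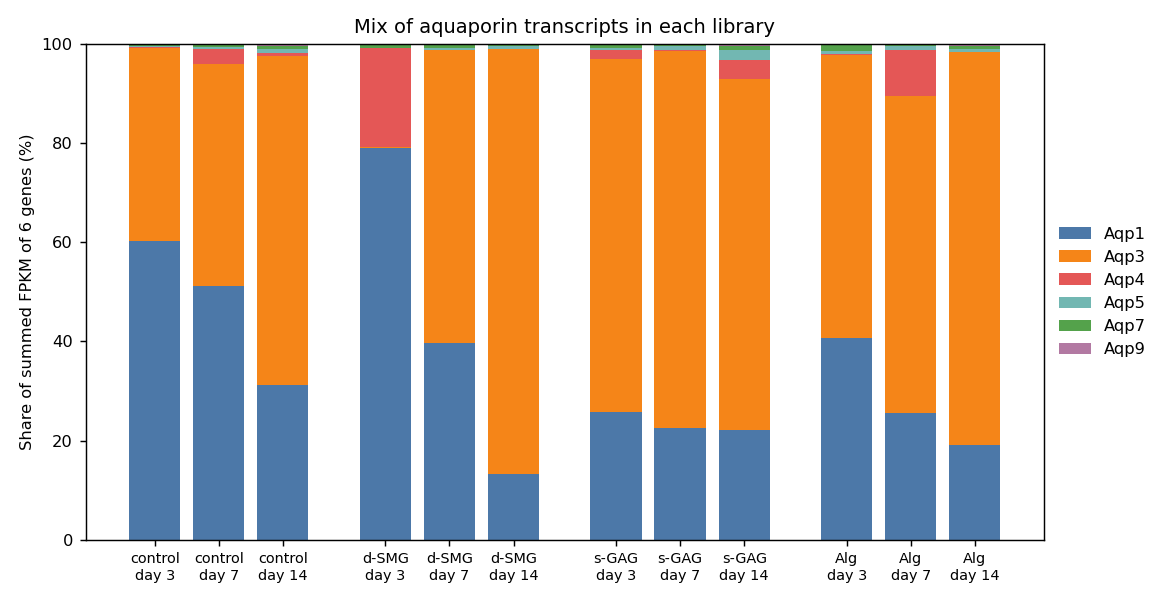
Stacked bars give the share (%) of each of the 6 genes in their summed FPKM, one bar for each of the 12 libraries, grouped by treatment and ordered by day. *Aqp3* and *Aqp1* fill 79.2% to 99.2% of every bar, and the d-SMG bar of day 3 is the one with almost no *Aqp3* (0.101%) and the most *Aqp4* (19.9%).

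*Aqp1*, the water channel of endothelium and red cells, was the steadiest of the 6 genes. Its level in the control group was 132, 62.9, and 56.2 CPM from the earliest to the latest day. With d-SMG the values were 89.8, 85.2, and 51.3 CPM, and with s-GAG 59.1, 98.4, and 67.3 CPM. In the Alg group the values were 87.1, 70.6, and 67.0 CPM. The control wound was thus the highest of the 4 on day 3 and the lowest on day 7, and the highest and lowest libraries of all differed by 2.58-fold. The group means were 83.8 ± 42.1 CPM for control, 75.4 ± 21.0 CPM for d-SMG, 74.9 ± 20.8 CPM for s-GAG, and 74.9 ± 10.7 CPM for Alg (SD, n = 3 days), with ranges that overlapped. By day, the means were 92.1 ± 30.2, 79.3 ± 15.8, and 60.5 ± 7.98 CPM on day 3, 7, and 14 (SD, n = 4 treatments). The summed CPM of 11 endothelium markers ran from 467 to 1110 over the libraries, and *Aqp1* relative to that sum varied by 2.58-fold. Relative to the 10 erythroid markers it varied by 64.9-fold.

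*Aqp3*, the glycerol and water channel of the epidermis, was the most abundant aquaporin in most wounds and was almost absent from one. The control libraries held 1399, 556, and 1679 reads on day 3, 7, and 14, which correspond to 58.7, 37.9, and 82.0 CPM. The s-GAG libraries held 112, 228, and 148 CPM, and the Alg libraries 83.8, 122, and 192 CPM. In the d-SMG group 1 read was found on day 3 among 16791836 (0.0804 CPM, 0.00204 to 0.448), followed by 87.1 CPM on day 7 and 228 CPM on day 14. On day 7 and 14 the control wound had the lowest level of the 4, and on day 3 it was second lowest.
Against the control of the same day, *Aqp3* in s-GAG was 0.94, 2.59, and 0.85 higher on the log2 scale on day 3, 7, and 14, which is 1.92-fold, 6.01-fold, and 1.81-fold. The corresponding differences in Alg were 0.51, 1.68, and 1.23. In d-SMG, *Aqp3* was lower by a log2 difference of -9.51 on day 3 (-14.82 to -7.03), and higher by 1.20 on day 7 (1.06 to 1.34) and by 1.47 on day 14 (1.39 to 1.56). The 3 dressings share each day's control library, so these values are not independent of one another.
The keratinocyte markers moved with *Aqp3*. The 3 libraries with the least *Aqp3*, namely d-SMG of day 3 and control of day 7 and 3, also had the lowest summed marker levels, at 55.3, 4374, and 5753 CPM. In the d-SMG library of day 3, all 13 markers in the table were below control, 12 of them by more than 4-fold, and 4 had 3 reads or fewer. Divided by the marker sum, *Aqp3* ranged from 1.45 per 1000 marker CPM in that library to 14.4 in s-GAG of day 7, a 9.93-fold range, whereas *Aqp3* itself ranged over 2834-fold. By group the sum ran from 4374 to 12205 CPM in control, 55.3 to 17946 in d-SMG, 11305 to 35304 in s-GAG, and 9085 to 17331 in Alg, with 13 of 15 markers in the table and 0 of them at 0 reads. The part of keratinocyte content in the *Aqp3* levels was not tested. The s-GAG library of day 14 had the highest marker sum, 35304 CPM, and only the fourth highest *Aqp3*.

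**Figure D2:**
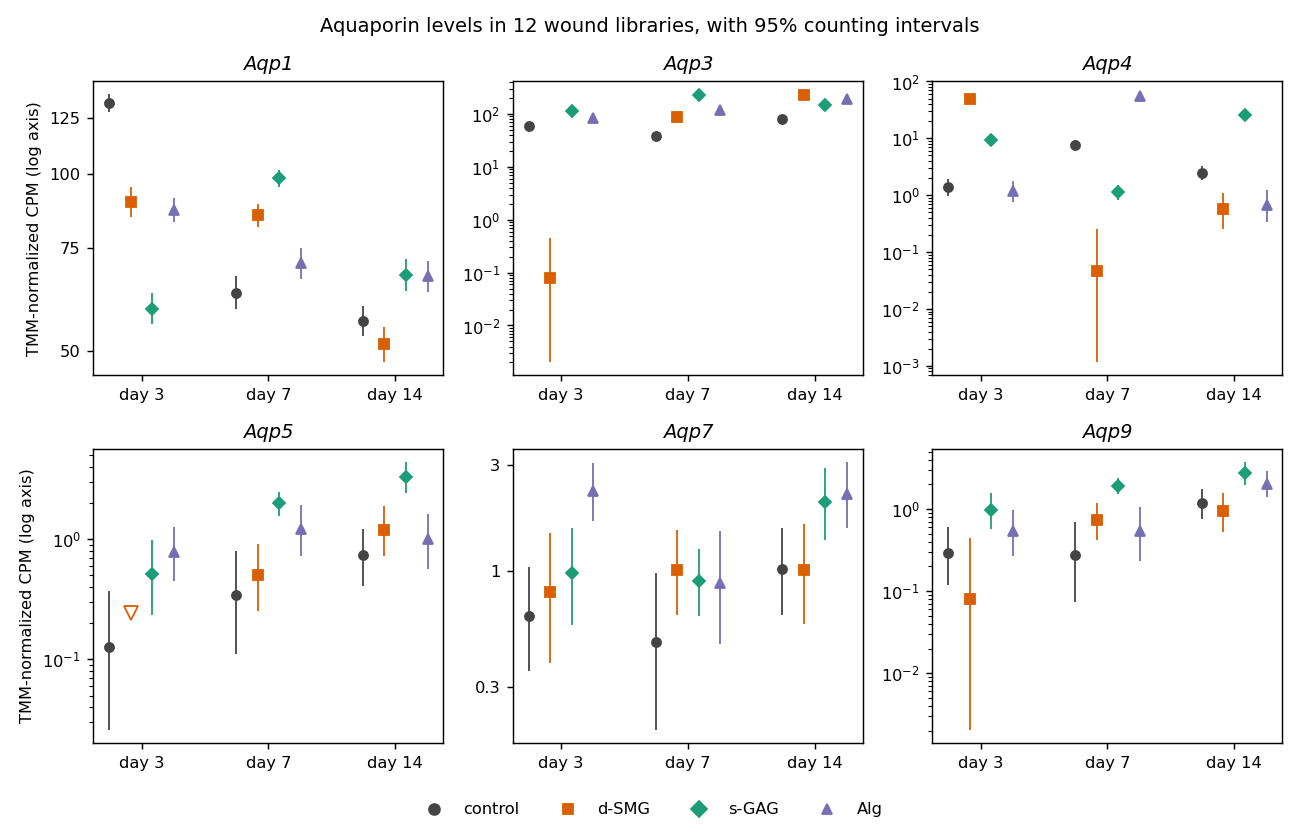
Each panel gives one gene's level in CPM on a log axis on day 3, 7, and 14, with colour and shape for the 4 treatments and bars for the exact 95% counting interval of the single library. The open triangle marks 0 *Aqp5* reads at the level of 3 reads. *Aqp1* stays between 51.3 and 132 CPM, *Aqp3* drops to 0.0804 CPM only in d-SMG of day 3, and *Aqp4* runs from 0.0460 to 55.3 CPM.

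*Aqp4*, a pure water channel known from astrocytes and fast muscle fibres, had the widest spread of the family apart from that single *Aqp3* library. Control wounds held 33, 114, and 51 reads on day 3, 7, and 14, or 1.38, 7.76, and 2.49 CPM. In the d-SMG group the reads were 609, 1, and 9, or 49.0, 0.0460, and 0.566 CPM. In the s-GAG group they were 165, 44, and 384, or 9.46, 1.13, and 26.2 CPM. In the Alg group they were 24, 814, and 11, or 1.17, 55.3, and 0.683 CPM. High and low values occurred within every dressing, and the groups overlapped.
No dressing kept one direction against control. The log2 difference in d-SMG was 5.14 on day 3 (4.64 to 5.70), -7.40 on day 7 (-12.71 to -4.89), and -2.14 on day 14 (-3.35 to -1.10). In s-GAG it was 2.77 on day 3 (2.23 to 3.36), -2.78 on day 7 (-3.32 to -2.27), and 3.39 on day 14 (2.97 to 3.85). In Alg it was -0.24 on day 3 (-1.06 to 0.56), 2.83 on day 7 (2.55 to 3.13), and -1.87 on day 14 (-2.96 to -0.91). The biological coefficient of variation that edgeR estimated for *Aqp4* was 1.46, higher than that of 99.9% of the 15672 genes, whereas the median gene had 0.422. *Aqp3* stood at 0.989 and *Aqp1* was lowest of the family at 0.355.
Muscle markers moved with *Aqp4* at both ends of its range. The libraries of d-SMG day 3, Alg day 7, and s-GAG day 14 had the 3 highest *Aqp4* levels and the 3 highest muscle sums, which were 272377, 169960, and 144367 CPM. The libraries of d-SMG day 7, d-SMG day 14, and Alg day 14 had the 3 lowest of both, with muscle sums of 6399, 9080, and 14064 CPM. In between, *Aqp4* ranged from 1.13 to 9.46 CPM while the muscle sum of these 6 libraries stayed between 49581 and 91756 CPM. Relative to 1000 CPM of muscle markers, *Aqp4* still varied by 45.2-fold, from 0.00719 to 0.325. By group the muscle sum ran from 72722 to 91756 CPM in control, 6399 to 272377 in d-SMG, 50639 to 144367 in s-GAG, and 14064 to 169960 in Alg. All 18 markers were above 3 reads in every library, and the part of muscle tissue in the *Aqp4* differences was not tested.

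**Figure D3:**
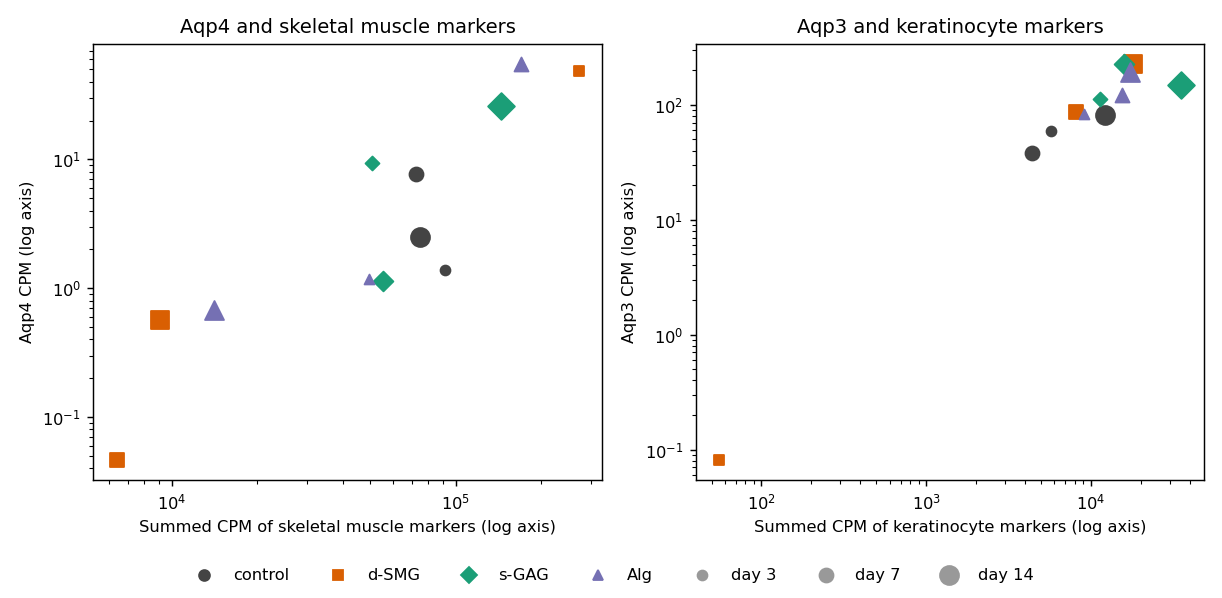
Left, *Aqp4* CPM against the summed CPM of 18 skeletal muscle markers, and right, *Aqp3* CPM against the summed CPM of 13 keratinocyte markers, on log axes, with 1 symbol per library, shape and colour for treatment, and size for day. The 3 libraries with the most muscle RNA are the 3 with the most *Aqp4*, and d-SMG of day 3 lies apart at 55.3 CPM of keratinocyte markers and 0.0804 CPM of *Aqp3*.

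In muscle, AQP4 is held at the membrane by the dystrophin complex. All 13 genes listed for that complex (among them *Dmd*, the gene of dystrophin) were tested, and 0 passed the test over the days in any dressing. Of the 13, 11 were above control in d-SMG of day 3, where 2 passed 4-fold upwards, with a median log2 difference of 0.53 against -0.03 for all genes. In d-SMG of day 7 all 13 were below control, with a median of -0.54, but 0 passed 4-fold. On day 14 of d-SMG 12 were below control and 5 passed 4-fold downwards, with a median of -1.79. In Alg 9 were below control on day 3 (median -0.64), 10 above on day 7 (0.70), and 12 below on day 14 (-1.55, 4 past 4-fold). The medians in d-SMG and Alg had the sign of the *Aqp4* difference on each day, whereas those in s-GAG had the opposite sign on day 3 and 14. On these days of s-GAG, where *Aqp4* was high, 8 of the 13 were below control, 2 and 4 of them past 4-fold. The medians were -0.33 and -0.34. On day 7 of s-GAG, where *Aqp4* was low, 7 were above control and 6 below. The median of 0.0057 was under the 0.0535 of all genes, so its sign says little.

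*Aqp5*, the water channel of sweat and other exocrine glands, was counted in few reads. The controls held 3, 5, and 15 reads on day 3, 7, and 14, or 0.126, 0.341, and 0.733 CPM. The d-SMG libraries held 0 reads on day 3, which allows a level of up to 0.241 CPM (3 reads), then 11 and 19 reads, or 0.506 and 1.20 CPM. The s-GAG libraries held 9, 77, and 48 reads, or 0.516, 1.98, and 3.28 CPM, and the Alg libraries 16, 18, and 16 reads, or 0.782, 1.22, and 0.993 CPM. On day 7 and 14 the control was the lowest of the 4 wounds. In s-GAG the log2 difference from control was 2.04 on day 3 (0.03 to 4.56), 2.54 on day 7 (1.25 to 4.20), and 2.16 on day 14 (1.30 to 3.10), so that the counting interval left out zero on each day. In Alg it was 2.64, 1.84, and 0.44, and in d-SMG 0.57 on day 7 (-1.07 to 2.45) and 0.71 on day 14 (-0.35 to 1.79). Of the 10 exocrine gland markers 8 were in the table, and their sum ran from 4.74 CPM in d-SMG of day 3 to 113 CPM in s-GAG of day 14, the same libraries that had the lowest and the highest *Aqp5*. In s-GAG the sum was 27.8, 31.2, and 113 CPM on day 3, 7, and 14, against 11.2, 8.31, and 21.5 CPM in control. The gland factor *Foxi1* was at 0 reads in 11 of the 12 libraries, and most of the sum came from keratins that other epithelia also make. The part of gland or other epithelial content in the *Aqp5* levels was not tested.

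*Aqp7*, the channel through which adipocytes release glycerol, was also low but never absent. Control wounds held 15, 7, and 21 reads on day 3, 7, and 14, or 0.629, 0.477, and 1.03 CPM. In d-SMG the levels were 0.804, 1.01, and 1.01 CPM, in s-GAG 0.975, 0.900, and 2.05 CPM, and in Alg 2.30, 0.882, and 2.23 CPM. The control was the lowest of the 4 on day 3 (under library size alone d-SMG was lower, at -0.074 on the log2 scale) and on day 7, and on day 14 control and d-SMG were nearly level (log2 difference -0.03, -1.06 to 0.98). None of the 9 differences from control reached 4-fold, and the largest was 1.87 in Alg of day 3 (1.005 to 2.81). The 12 adipocyte markers summed to between 740 and 2868 CPM, and *Aqp7* relative to them varied by 2.32-fold, from 0.480 to 1.11 per 1000 marker CPM, against 4.82-fold for *Aqp7* itself.
Beside it, 12 genes of glycerol release and use were examined, from the lipases that free glycerol to the kinase that traps it, and all were tested. With edgeR's quasi-likelihood test and Benjamini-Hochberg adjustment 0 of them passed in any dressing. In Alg 7 were higher and 5 lower than control, with a median log2 change of 0.11. The smallest p in that comparison belonged to *Pck1*, the gluconeogenic carboxykinase that also serves glycerol synthesis in fat, with a log2 change of 3.12 (SE 0.88), followed by *Plin1*, the coat protein of the fat droplet, with 1.54 (SE 0.60). Both had an adjusted p of 0.9999. Of 16 genes of cell volume and osmotic response, such as the anion channel subunit *Lrrc8a*, 0 passed in any dressing either, and their median log2 changes lay at -0.12 in d-SMG, -0.36 in s-GAG, and -0.14 in Alg.

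*Aqp9*, a channel for glycerol and other small solutes in hepatocytes and leukocytes, had 7, 4, and 24 reads in the controls on day 3, 7, and 14, or 0.294, 0.272, and 1.17 CPM. In d-SMG 1, 16, and 15 reads were found, or 0.0804, 0.736, and 0.944 CPM. In s-GAG the reads were 17, 75, and 40, or 0.975, 1.93, and 2.73 CPM, and in Alg 11, 8, and 33, or 0.538, 0.543, and 2.05 CPM. In CPM the s-GAG wound was the highest of the 4 on every day, and the control was the lowest on day 7 alone. On day 14, however, the counting intervals of s-GAG (1.95 to 3.72 CPM) and Alg (1.41 to 2.88 CPM) overlapped. In FPKM the order of these 2 was reversed on that day, with 0.38 in s-GAG and 0.42 in Alg. The log2 difference of s-GAG from control was 1.73 on day 3 (0.39 to 3.24), 2.82 on day 7 (1.41 to 4.74), and 1.22 on day 14 (0.45 to 2.01). Neutrophil markers, 10 genes with a summed level of 12.8 to 169 CPM, summed to 50.9, 48.0, and 59.8 CPM in s-GAG against 97.9, 131, and 32.5 CPM in the controls, lower on day 3 and 7, where *Aqp9* was higher, and higher on day 14 like *Aqp9*, and *Fpr1*, *Ngp*, or *Camp* was at 0 reads in each library. In CPM the lowest and the highest *Aqp9* levels belonged to d-SMG of day 3 and s-GAG of day 14. These libraries had the lowest and the highest keratinocyte sums, and likewise the lowest and the highest sebaceous gland and exocrine gland sums. The lowest neutrophil sum was also in d-SMG of day 3, and the highest was in Alg of day 14, which had the second highest *Aqp9*. The part of any of these cell types was not tested.

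Day by day, the number of aquaporins past 4-fold from control was read against the share of all genes that did the same, since some libraries differed widely at large. On day 3 of d-SMG 2 of 4 aquaporins with at least 10 reads in the pair passed (*Aqp3* lower, *Aqp4* higher), where 8.98% of all genes did. *Aqp5*, with 0 against 3 reads, and *Aqp9*, with 1 against 7, were below that minimum. *Aqp4* was the 1 of 6 on day 7 of d-SMG (3.92% of all genes) and again the 1 of 6 on day 14 (8.64%).
In s-GAG *Aqp4* and *Aqp5* passed on day 3, 2 of 6, with 7.29% of all genes. On day 7 *Aqp3*, *Aqp5*, and *Aqp9* were higher and *Aqp4* lower, 4 of 6, with 8.76% of all genes. On day 14 *Aqp4* and *Aqp5* were higher, 2 of 6, but 25.3% of all genes passed in that pair, so the share among the aquaporins was close to the background.
In Alg *Aqp5* was the 1 of 6 on day 3 (5.46% of all genes), *Aqp4* the 1 of 6 on day 7 (5.84%), and 0 of 6 passed on day 14 (7.55%).
The control wound was the lowest of the 4 in 1 of 6 aquaporins on day 3 (22% of all genes), in 5 of 6 on day 7 (25.9%), and in 2 of 6 on day 14 (28%). The exception on day 7 was *Aqp4*. A single control library stands behind each of these counts, so that they describe that wound as much as the treatments.

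**Figure D4:**
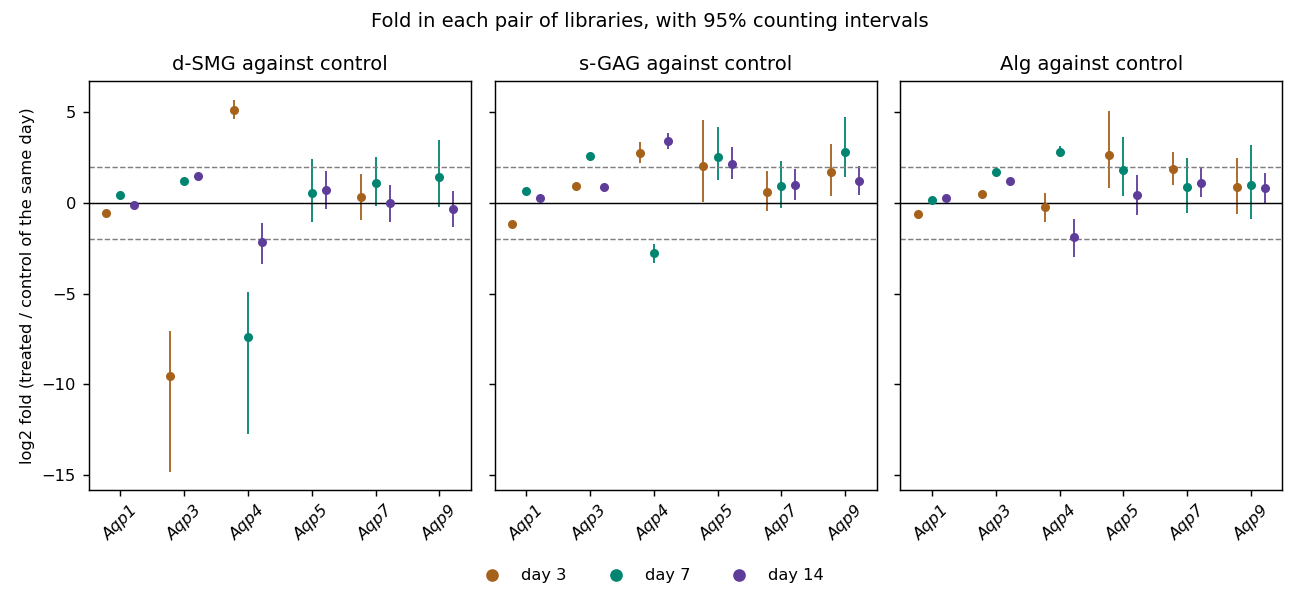
Points give the log2 fold of each dressing over the control library of the same day, with exact 95% counting intervals, colour for day, and dashed lines at 4-fold. *Aqp3* in d-SMG of day 3 (-9.51) and *Aqp4* in d-SMG of day 7 (-7.40) lie lowest, and *Aqp4* changes side between days in every panel.

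Whether a dressing or a day shifted an aquaporin was then tested over all 12 libraries with edgeR's quasi-likelihood test, in which the 3 days stand as replicates of a treatment and the 4 treatments as replicates of a day. After Benjamini-Hochberg adjustment 0 of the 6 genes passed for d-SMG, s-GAG, or Alg against control, for day 7 or 14 against day 3, for day 14 against day 7, or for any difference among treatments or days. In each of these 8 tests 0% of the 15672 genes passed. At an unadjusted p under 0.05 stood 204 genes for d-SMG, 1424 for s-GAG, and 461 for Alg, and DESeq2 called 8, 287, and 84 genes, of which 0 were aquaporins. Between days the numbers at an unadjusted p under 0.05 were 271 for day 7 against 3, 754 for day 14 against 3, and 460 for day 14 against 7, and DESeq2 called 0, 41, and 7 genes, again with 0 aquaporins. For any difference among treatments 503 genes stood at that level and DESeq2 called 115, and for any difference among days 451 stood there and DESeq2 called 21, with 0 aquaporins in both.
Of the 3 dressings, s-GAG had the smallest adjusted p-values in edgeR, those of *Aqp5* and *Aqp9*. For *Aqp5* the log2 change was 2.22 (SE 0.75) with an adjusted p of 0.499 in edgeR, and the adjusted p ran from 0.0830 to 0.857 over the alternatives. For *Aqp9* the log2 change was 1.84 (SE 0.59) with an adjusted p of 0.474 in edgeR and a range from 0.105 to 0.857. Both genes were higher than control in s-GAG on 3 of 3 days, but so were *Aqp3* and *Aqp7*. In Alg the same genes were also higher than control on 3 of 3 days. The share of all genes with that pattern is not given here. For s-GAG against control the estimates of all 15 hair follicle markers were higher, with a median log2 change of 7.19. Of these, 15 had an unadjusted p under 0.05 in edgeR, against 9.09% of all genes. The estimates of all 11 macrophage markers were lower, with a median of -1.38 and 4 at that level. After adjustment 0 markers of either list passed. The estimates of all 15 hair follicle markers were also higher in Alg (median 5.999) and in d-SMG (median 4.32). In edgeR 15 of them in Alg and 8 in d-SMG had an unadjusted p under 0.05, against 2.94% and 1.30% of all genes. Of the 11 macrophage markers 10 were also lower in d-SMG (median -0.42) and 10 in Alg (median -0.79). Of these, 0 in d-SMG and 2 in Alg had an unadjusted p under 0.05 in edgeR. The summed macrophage level was 2898 to 3990 CPM in control and 635 to 1912 CPM in s-GAG, with 0 markers at 0 reads. Of the 15 hair follicle markers, 2 were at 0 reads in control of day 3 and 2 in d-SMG of day 3. At 3 reads or fewer stood 10 in control of day 3, 4 in control of day 7, and 11 in d-SMG of day 3, so their changes rest partly on counts near zero. On day 3 of d-SMG only 4 of them had enough reads to be set against control, 2 higher and 2 lower. In s-GAG the estimates of all 5 exocrine gland markers tested were higher too, with a median of 1.30 and 2 at an unadjusted p under 0.05 in edgeR. Of the 13 keratinocyte markers 10 were higher and 3 lower, with a median of 1.23 and 1 at that level. After adjustment 0 markers of these lists passed either. The part of hair follicle, macrophage, gland, or keratinocyte content in the *Aqp5* and *Aqp9* changes was not tested. In Alg the changes were 1.73 (SE 0.76) for *Aqp5* and 1.34 (SE 0.48) for *Aqp7*, each with an adjusted p of 0.9999 in edgeR. In d-SMG no aquaporin had an unadjusted p under 0.05, and the changes were 0.32 (SE 0.77) for *Aqp5*, 0.51 (SE 0.48) for *Aqp7*, and 0.05 (SE 0.61) for *Aqp9*.
*Aqp3* and *Aqp4* carried the largest errors. *Aqp3* was estimated at 0.22 (SE 1.36) in d-SMG, 1.43 (SE 1.28) in s-GAG, and 1.01 (SE 1.26) in Alg. When the d-SMG library of day 3 was left out, a choice made after the data had been seen, these became 1.18 (SE 0.49), 1.496 (SE 0.44), and 1.12 (SE 0.43), with adjusted p-values of 0.977, 0.244, and 0.901 in edgeR. *Aqp4* stood at 2.33 (SE 3.14) in d-SMG, 2.50 (SE 2.50) in s-GAG, and 1.70 (SE 2.48) in Alg, but at -3.79 (SE 2.24) in d-SMG without the library of day 3, and at -3.83 (SE 2.91) in Alg without the Alg library of day 7. Both libraries were chosen for leaving out after the data had been seen. They held the highest and second highest *Aqp4* levels of all, so that lower estimates without them follow from the choice. *Aqp1* had the smallest change in each dressing except that of *Aqp9* in d-SMG, from -0.13 to -0.08 with an SE of 0.36 or less.
Over time, *Aqp5* and *Aqp9* were higher on day 14 than on day 3. The means of *Aqp5* were 0.356 ± 0.359, 1.01 ± 0.750, and 1.55 ± 1.17 CPM on day 3, 7, and 14, and those of *Aqp9* were 0.472 ± 0.384, 0.870 ± 0.730, and 1.72 ± 0.822 CPM (SD, n = 4 treatments). From day 3 to day 14 the log2 change was 2.28 (SE 0.68) for *Aqp5* and 1.98 (SE 0.52) for *Aqp9*, both with an adjusted p of 0.893 in edgeR, while DESeq2 gave adjusted p-values of 0.0808 and 0.0793. *Aqp9* was higher on day 14 in 4 of 4 treatments, as were *Aqp5* and *Aqp3*. For *Aqp5* in Alg, however, both days had 16 reads, and 0.782 (0.447 to 1.27) and 0.993 CPM (0.567 to 1.61) had overlapping counting intervals. The share of all genes that were higher in 4 of 4 treatments is not given here. The mean of *Aqp3* was 63.8 ± 47.8, 119 ± 80.5, and 162 ± 62.7 CPM on the same days, with a log2 change of 1.59 (SE 1.19) from day 3 to day 14 and of 0.83 (SE 0.42) without d-SMG of day 3. *Aqp1* went the other way, with a log2 change of -0.60 (SE 0.31) and an adjusted p of 0.893 in edgeR. For all 13 keratinocyte markers in the table the estimated change from day 3 to day 14 was also upwards, with a median of 2.35 and 0 passing.

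**Figure D5:**
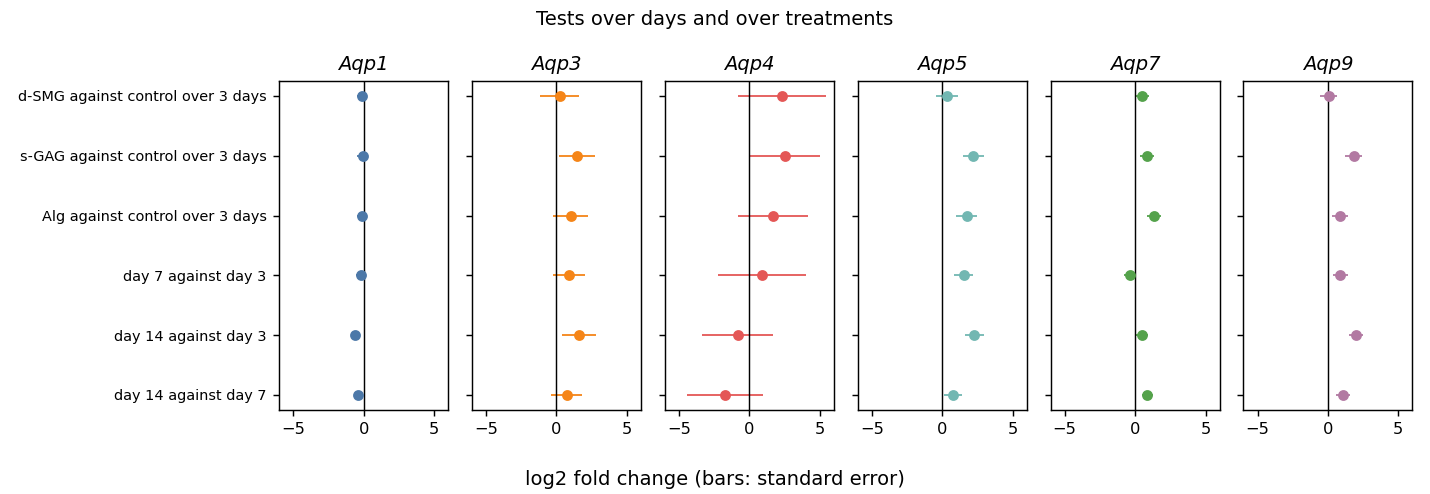
Log2 changes with their standard errors from edgeR's quasi-likelihood fit, 1 panel per gene, for each dressing against control over 3 days and for each pair of days over 4 treatments. The bars of *Aqp4* and *Aqp3* are the widest, *Aqp1* lies close to zero, and none of the points passed the adjusted threshold.

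The genes whose levels ran most closely with each aquaporin were sought among 13917 genes by Pearson's r of log2 CPM over the 12 libraries. The libraries are shared by all genes and d-SMG of day 3 is an extreme point, so r is also given over the other 11 libraries, and no test is attached.
For *Aqp3* the nearest were *Ckmt1*, a mitochondrial creatine kinase (r = 0.996, and 0.958 without that library), *Lypd3*, a surface protein of stratified epithelium (0.994 and 0.983), and *Tmem79*, a membrane protein of the epidermal granular layer (0.994 and 0.980). For *Aqp4* they were *Fbp2*, the fructose-bisphosphatase of muscle (0.950 and 0.942), *Gpd1*, the cytosolic glycerol-3-phosphate dehydrogenase (0.941 and 0.974), and *Ky*, a muscle peptidase (0.938 and 0.921). *Aqp9* ran with the epithelial genes *Anxa9* (0.962 and 0.945) and *Cldn4*, a tight junction claudin (0.959 and 0.958), and with the thiamine transporter *Slc19a2* (0.955 and 0.927).
*Aqp5* was nearest to the sphingosine-1-phosphate receptor *S1pr5* (0.963 and 0.934), to *Aspg* (0.953 and 0.929), and to *Bcl2l15* (0.953 and 0.916), and no value of *Aqp5* rests on more than 77 reads. The values of r over the 12 libraries were lower for *Aqp1* and *Aqp7*. *Aqp1* was nearest to *Gucd1* (0.908 and 0.930), *Serpinb6a* (0.857 and 0.854), and *Sts*, the steroid sulfatase (0.855 and 0.853). *Aqp7* was nearest to *Cnga4* (0.889 and 0.886), *Srsf7* (0.855 and 0.905), and the keratin *Krt2* (0.850 and 0.846).

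On the rat assembly GRCr8 *Aqp7* lies next to *Aqp3* on chromosome 5. Both genes were higher than control in 8 of 9 pairs, but in d-SMG of day 3, where *Aqp3* was 0.0804 CPM against 58.7 CPM in control, *Aqp7* was 0.804 CPM against 0.629 CPM. *Aqp5* lies between *Aqp2* and *Aqp6* on chromosome 7, and these 2 genes were not found under their symbols in the count table. Of the other aquaporin genes, *Mip*, *Aqp8*, *Aqp11*, and *Aqp12a* were in the table with a summed level of 0 to 1.02 CPM in a library. The highest of these sums was in s-GAG of day 14, where *Aqp8* had 10 reads.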

How the data were processed

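Wound tissue of 4 groups on 3 days was measured by stranded, rRNA-depleted RNA sequencing with paired reads of 150 bases. The authors deposited raw read counts per gene, and they deposited FPKM values scaled for gene length and library total. The submitters' notes name bcl2fastq, FastQC, TopHat2, and edgeR without versions, and the genome build and the counter are not given in the sources used here. Each of the tables has 1 further column that matches no sample, which was not used. Groups and days were taken from the labels. The 6 genes and all gene lists were chosen with earlier results of these data known.

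The counts were scaled by TMM in edgeR 4.0.16 (R 4.3.3), filtered by filterByExpr, and tested by the quasi-likelihood test with terms for treatment and day with the threshold at a Benjamini-Hochberg FDR of 0.05, after the procedure was tested on simulated data. In that simulation 15 of 100 genes changed 4-fold in d-SMG were recovered, and 80 of 100 changed 16-fold. Most changes of 4-fold were thus missed, and a gene that did not pass may still have changed. Dressed wounds were set against the control of their day as a ratio of CPM, without a test, for genes with at least 10 reads in the pair, and a count of 0 was replaced by 3 reads. Counting intervals are exact (Clopper-Pearson, 95%, scipy 1.17.1), and reads without molecular identifiers are not independent molecules. Since days stand as replicates, a treatment effect that differs by day counts as spread, and p-values measure only the spread between these libraries. DESeq2 1.42.0 and limma 3.58.1 on log2(FPKM + 1) or log2(FPKM + 0.1) were alternatives. All 6 genes were named, with the 3 genes most like each by r (log2 CPM, prior count 2, without provisional symbols) and at most 2 genes of a list, those of smallest p. *Foxi1*, *Aqp8*, and the other genes given as examples of lists were named after their values were seen. Promoter windows of the rat were found for 5 of the 6 genes in a RefSeq table on GRCr8, and neighbours came from a table of the same assembly. Figures were drawn with matplotlib 3.10.9.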

Additional observations from a re-analysis of the deposited data

Results flagged for a closer look

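The *Aqp3* level of d-SMG on day 3 lay far from the other 3 libraries of that day. It was 0.0804 CPM, the others were 58.7 to 112 CPM, and on the scale of log2 CPM with a prior count of 2 the gap to the nearest made up 0.899 of the whole range, above the limit of Dixon's test for 4 values. On the CPM scale itself the gap was 0.522 of the range, below that limit, and the 2 sets above it were those of *Aqp4* on day 7 (Alg highest, 0.860) and on day 14 (s-GAG highest, 0.925). On the log2 scale this was the 1 such case among 18 sets of 4 libraries, of which chance would be expected to give about 1 in 20.

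*Aqp4* lay past 4-fold on opposite sides of control on different days in 2 groups. In d-SMG the log2 differences were 5.14, -7.40, and -2.14 on day 3, 7, and 14, and in s-GAG they were 2.77, -2.78, and 3.39. With 1 library for each group and day the differences between days were not tested.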

How the results depend on the processing

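The number of aquaporins past the adjusted threshold was 0 in all 8 tests under every alternative (5 genes tested under the filter of 1 CPM), including the fit without the replicate block (no day term, 0). The number past 4-fold in the single pairs depended on scale and limit. With log2(FPKM + 1) it was 0 for d-SMG on day 7 and 14, for s-GAG on day 3 and 14, and for Alg on day 3, and 1 for s-GAG on day 7. With log2(FPKM + 0.1) it was 0 for d-SMG on day 14 and Alg on day 3, 1 for s-GAG on day 3 and 14, and 3 for s-GAG on day 7. With library size alone it was 0 for d-SMG on day 14, 1 for s-GAG on day 14, and 2 for Alg on day 3. That scaling moved the median log2 difference of all genes most in s-GAG of day 14, from -0.04 to -0.48, and in d-SMG of day 3, from -0.03 to -0.46. It turned the small differences of *Aqp1* on day 14 to 0.058 in d-SMG and -0.19 in s-GAG, and those of *Aqp7* in d-SMG to -0.074 on day 3 and 0.16 on day 14. With at least 50 reads it was 1 for s-GAG on day 3 and 0 for Alg on day 3. With 2-fold in place of 4-fold it was 4 for d-SMG on day 7 (13.3% of all genes passed) and s-GAG on day 3 (25.6%), 2 for d-SMG on day 14 (28.7%) and Alg on day 3 (20.2%), 3 for Alg on day 7 (24.4%) and 14 (21.3%), and 3 for s-GAG on day 14 (57.9%). Over the 9 pairs the share of all genes past 4-fold was 3.92% to 25.3% as reported, 0.926% to 8.68% with log2(FPKM + 1), 2.35% to 19.5% with log2(FPKM + 0.1), 4.15% to 27% with library size alone, and 2.51% to 23.5% with at least 50 reads.

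Since no log2 change of an aquaporin passed under any setting, all changes of sign are among changes that had not passed. The cause was not tested. For d-SMG against control *Aqp3* was -0.61 with limma on log2(FPKM + 1), -1.57 on log2(FPKM + 0.1), and -0.21 with only the 2 groups compared. *Aqp4* was -0.25 on log2(FPKM + 0.1) and -1.53 with only the 2 groups, and *Aqp9* was -0.029 with only the 2 groups. For day 7 against day 3 *Aqp4* was -0.037, -0.41, and -0.40 under the same 3 settings. Further fits left out a day, a treatment, or 1 of 2 libraries chosen after the data had been seen (d-SMG of day 3 and Alg of day 7). In these fits d-SMG against control ranged from -0.38 to 0.20 for *Aqp1*, from -0.999 to 1.40 for *Aqp3*, from -4.02 to 3.32 for *Aqp4*, and from -0.71 to 0.50 for *Aqp9*. For s-GAG the range was -0.44 to 0.44 for *Aqp1* and -0.0825 to 3.25 for *Aqp4*, and for Alg -0.29 to 0.22 for *Aqp1* and -3.83 to 2.67 for *Aqp4*. Day 7 against day 3 ranged from -0.49 to 0.15 for *Aqp1* and from -3.33 to 3.30 for *Aqp4*, and *Aqp4* ranged from -2.84 to 1.45 for day 14 against day 3 and from -3.72 to 1.48 for day 14 against day 7.

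The exact counting error limits *Aqp5*, *Aqp7*, and *Aqp9*, with 0 to 77, 7 to 47, and 1 to 75 reads per library, respectively. Animal-to-animal spread could not be measured. Of the 3 genes nearest to each aquaporin, 0 or 1 were again among the nearest by Spearman's rho.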
